A study of Mus musculus with 3 samples.

Results

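Potassium channel genes were taken as the rows of the expression table whose symbol begins with Kcn, leaving out Kcnj10 and Kcnj16, the inward rectifier genes of astrocyte endfeet. The rule found 84 genes among 16610 in the table. Of these, 81 were protein-coding and 3 were long noncoding RNAs in RefSeq, so a few members carry a channel name without encoding a channel. The rule itself uses symbols and no measured value, though it was set with earlier results of these data known.

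The study took ribosome-bound RNA from mouse brain 3 days after middle cerebral artery occlusion (MCAO), a stroke model in which a brain artery was blocked for 1 h. The 3 libraries came from the middle section of a hemisphere. They were the right hemisphere of animals that had no MCAO (control), the right hemisphere of MCAO animals (contralateral), and the left, occluded hemisphere of MCAO animals (MCAO). RNA was obtained by RiboTag, an immunoprecipitation of tagged ribosomes together with the transcripts on them. All groups were therefore RiboTag tissue. The title speaks of astrocytes, while the labels name no Cre driver, strain, sex or age. Each library pooled 3 animals with 2 technical replicates, per the series design, and each group had 1 library. No difference therefore has a replicate check or a p-value, and left and right cannot be told apart from occlusion.

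Potassium channels let potassium ions leave or enter cells along their gradient. Voltage-gated Kv channels repolarise the action potential and set firing patterns, inward rectifiers and tandem-pore (K2P) channels hold the resting potential, and calcium-activated channels follow calcium entry. Each functional channel is assembled from pore subunits, often with auxiliary subunits that alter gating or trafficking. In the brain most Kv genes are known from neurons, while a few members are known from glia, vessels, choroid plexus, leukocytes or sperm.

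The recovered depth was 25930258 to 33886604 reads per library. The 10 astrocyte markers summed to 356566 (control), 352970 (contralateral) and 396667 (MCAO) normalised counts. Without Gfap, the reactive astrocyte gene with 5903, 12202 and 76049, the other 9 summed to 350663, 340768 and 320618, so that 1 gene set MCAO highest (a sum added after its values were seen). The 13 neuron markers summed to 397912, 353693 and 347247 in the same order, so neuronal transcripts were plentiful in all 3 libraries and a member's transcripts cannot be assigned to astrocytes. The 11 male germ cell markers summed to 38.9, 10328 and 25.5, which set the contralateral library apart from the others. The 9 markers of striatal medium spiny neurons summed to 37521, 34625 and 14249, and the 13 of microglia and macrophages to 6122, 6422 and 19271. In such RiboTag samples, fewer cells of a type, less ribosome-bound RNA per cell and a different purity of the immunoprecipitation cannot be told apart.

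Potassium channel genes were mostly lower in both hemispheres of the MCAO animals than in the control, by small amounts. Their share of all normalised counts was 0.497% in the control, 0.438% on the contralateral side and 0.414% in MCAO. Of the 84 members, 80 had a mean of at least 20 normalised counts over the 3 libraries and were compared on the log2(value + 5) scale. In MCAO 66 of the 80 were below the control by any amount, where 50.3% of all 14906 genes past the same filter were. The median log2 difference was -0.31, with quartiles of -0.51 and -0.08, beside a median of 0.00 over all genes. In the contralateral library 64 of 80 were below the control, against 50.6% of all genes, and the median was -0.23 with quartiles of -0.36 and -0.06. Both comparisons use the control library. MCAO against the contralateral library gave 52 of 80 members lower, against 50.3% of all genes, and a median of -0.08.

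**Figure D1:**
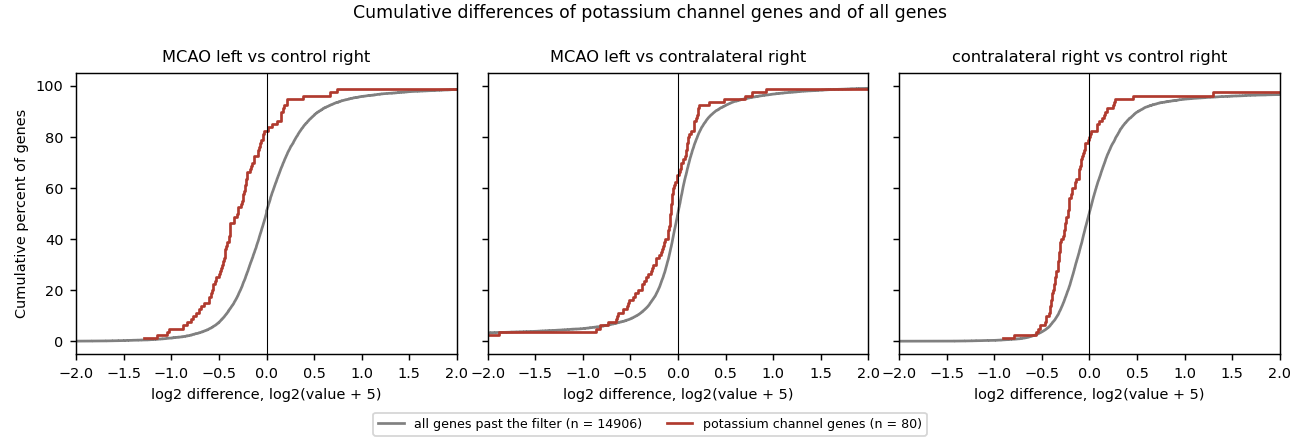
Cumulative percent of genes (y axis) by log2 difference on the log2(value + 5) scale (x axis, shown from -2 to 2) for the 3 library pairs, with 80 potassium channel genes in red and all 14906 genes past the filter in grey. The red curve lies left of the grey one in both comparisons with the control (medians -0.31 and -0.23) and close to it in MCAO against contralateral (median -0.08).

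Few members differed strongly. At least 2-fold lower in MCAO than in the control were 4 of 80, namely Kcna3, Kcna5, Kcnh6 and Kcnq3, where 1.25% of all genes were. Only Kcnn4 was at least 2-fold higher, where 4.12% of all genes were. At the smaller size of 1.5-fold, 15 of 80 (18.8%) were lower, against 5.18% of all genes, and 3 were higher, against 9.16%. The members that came nearest to 2-fold lower without reaching it were Kcnn3 at -0.87 and Kcnk9 at -0.84. Those that passed it most narrowly were Kcnh6 at -1.03 and Kcna5 at -1.05. With a pseudocount of 20 in place of 5, Kcnq3 alone passed 2-fold lower (1.25% of members, against 0.704% of all genes), and Kcna3, Kcna5 and Kcnh6 stood at -0.83, -0.99 and -0.73. Among the 62 members with a mean of at least 100 the count was 2, against 0.764% of all genes at that level, and the count of higher members was 0, against 2.28%.

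**Figure D2:**
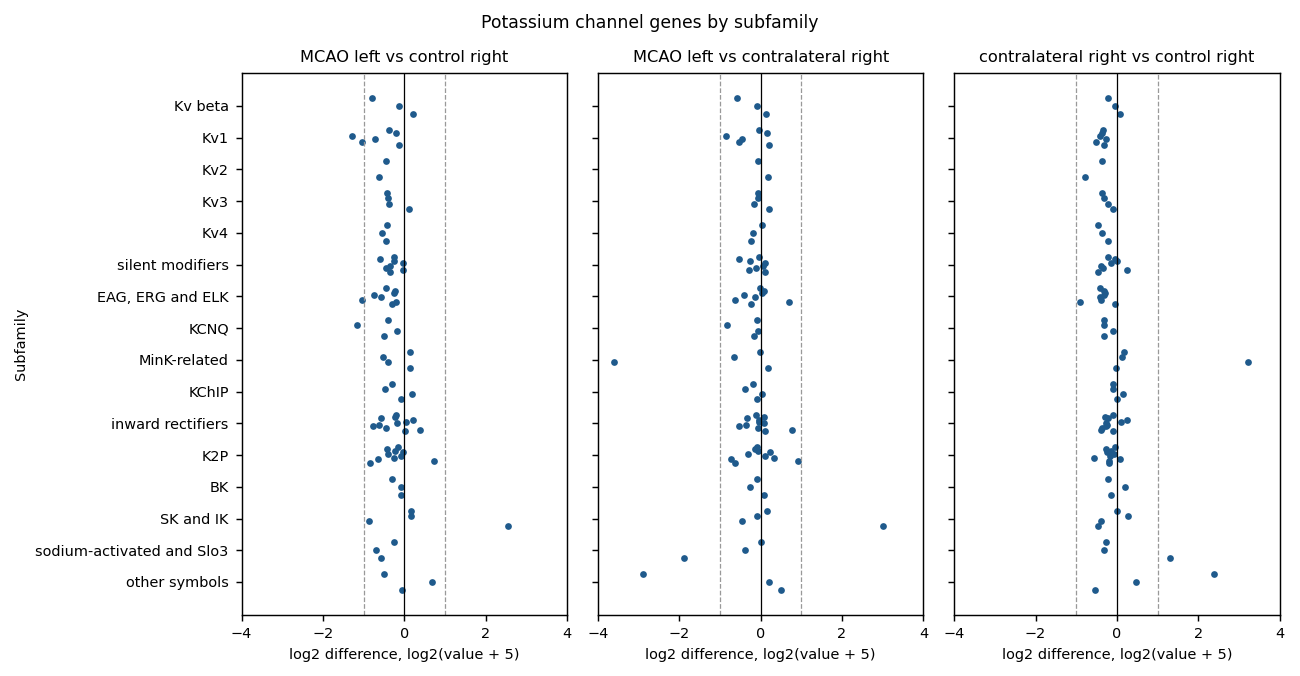
Log2 differences (x axis, log2(value + 5) scale) of the 80 members past the filter, each a point, by subfamily (y axis) in the 3 library pairs, with dashed lines at a 2-fold difference in either direction. All points of the Kv1, Kv2, Kv4, KCNQ, EAG, silent-modifier, BK, and sodium-activated and Slo3 rows lie left of 0 in MCAO against control. Kcnn4 stands far to the right at 2.54.

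The Kv1 subfamily, whose subunits form low-threshold channels of axons and their initial segments, had all 6 members below the control in MCAO, with a median of -0.55. The contralateral values of all 6 were below the control too, at a median of -0.36. Kcna1 had 6391, 5006 and 4907 normalised counts (control, contralateral, MCAO, the order kept for every gene). The MCAO value was 0.768-fold that of the control, with a 95% counting interval of 0.739 to 0.798. Kcna2, which joins Kcna1 in juxtaparanodal channels, had 10123, 7850 and 8791. For Kcna1 both MCAO-animal libraries were alike and below the control, while Kcna2 was lowest in the contralateral library. Kcna6 had 4242, 3380 and 3880, again lowest in the contralateral library. Such intervals cover counting error alone: the reads carry no molecular identifiers, so copies of 1 molecule may be counted repeatedly.

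The other Kv1 members had their lowest values in MCAO. Kcna4, an A-type channel gene, had 962, 802 and 586 normalised counts. Kcna5 had 370, 257 and 176, and MCAO stood at 0.477-fold of the control (0.392 to 0.578) and at 0.686-fold of the contralateral library (0.559 to 0.838). Kcna3, a channel of T cells and microglia as well as of neurons, had 38.7, 27.5 and 12.9, from 40, 31 and 11 reads. Its ratio of 0.334 to the control carried a wide interval of 0.155 to 0.663. The summed markers of microglia and macrophages were highest in MCAO and Kcna3 was lowest there. The part of these cells or of neurons in the Kcna3 values was not tested.

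The Kv1 members other than Kcna4, which is on chromosome 2, lie in 2 clusters. Neighbours in a cluster did not share the size of their differences. On chromosome 6 of GRCm38.p6 (mm10), Kcna5 (126532551 to 126535555), Kcna1 (126636463 to 126645801) and Kcna6 (126708328 to 126740834) stood at log2 differences of -1.05, -0.38 and -0.13 from the control in MCAO. On chromosome 3, Kcna3 (107036162 to 107038129) stood at -1.29 and Kcna2 (107090883 to 107115005) at -0.20. The 250 bases upstream of the start sites of Kcna3 and Kcna5, the most reduced members of the 2 clusters, are shown from RefSeq (GRCm38.p6), 5′ to 3′ on the gene's strand, with each CpG in capitals. They differ widely in CpG content, with 31 CpGs for Kcna3 at chr3:107035912-107036161 (plus strand) and 3 for Kcna5 at chr6:126535556-126535805 (minus strand).
Kcna3: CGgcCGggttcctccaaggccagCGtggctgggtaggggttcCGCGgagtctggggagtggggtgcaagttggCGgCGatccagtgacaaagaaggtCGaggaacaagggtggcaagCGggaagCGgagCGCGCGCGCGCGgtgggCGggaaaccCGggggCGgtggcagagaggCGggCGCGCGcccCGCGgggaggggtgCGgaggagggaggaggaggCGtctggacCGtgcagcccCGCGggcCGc
Kcna5: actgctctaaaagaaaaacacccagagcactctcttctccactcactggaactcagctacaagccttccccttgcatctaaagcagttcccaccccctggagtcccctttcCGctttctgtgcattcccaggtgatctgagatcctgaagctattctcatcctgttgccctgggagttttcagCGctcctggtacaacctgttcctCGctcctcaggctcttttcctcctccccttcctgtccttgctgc
As many CpGs as in the Kcna3 window or fewer were held by 92.3% of the 15855 windows of listed genes, and as many as in that of Kcna5 or fewer by 14.6%. Whether CpG content goes with the size of the difference was not tested over the members. Windows were found for 61 of the 84 members. These 83 windows had a median of 8 CpGs, with quartiles of 4 and 16.5, beside 14 over all listed genes, with quartiles of 6 and 22.

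The Kv beta subunits, cytoplasmic partners of Kv1 channels, split. Kcnab1 had 3738, 3215 and 2154 normalised counts. MCAO stood at 0.576-fold of the control (0.545 to 0.609) and at 0.67-fold of the contralateral library (0.633 to 0.709). Kcnab2 had 13512, 13094 and 12363, and Kcnab3 had 3031, 3191 and 3519, the highest value being in MCAO. Log2 differences of these genes in MCAO against the control thus ran from -0.79 for Kcnab1 to 0.21 for Kcnab3.

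All 9 pore genes of the Kv2, Kv3 and Kv4 subfamilies were below the control in the contralateral library, and 8 of them in MCAO. Kcnb2, a Kv2 delayed rectifier gene, had 164, 92.3 and 106 normalised counts and was lowest in the contralateral library, at 0.564-fold the control (0.437 to 0.724). Kcnc1, a Kv3 gene of fast-spiking neurons, had 6021, 4663 and 4463. Kcnc2 had 3305, 2625 and 2518. The exception was Kcnc4, with 2246, 2093 and 2417, whose MCAO value was 1.08-fold the control (1.01 to 1.14). The 4 markers of fast-spiking interneurons, of which Gad1 is also in the neuron list, had a median of -0.07 in MCAO against the control. Of these, 2 were below the control and none differed by 1.5-fold. The 4 Kv3 genes had a median of -0.39, and the part of these interneurons in their values was not tested.

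Kv4 channels carry the A-type current of dendrites. Kcnd2 had 5002, 3896 and 3442 normalised counts and was 0.688-fold the control in MCAO (0.657 to 0.72). Kcnd3 had 3118, 2682 and 2291, and Kcnd1 had 515, 374 and 381. All 3 were highest in the control, with a median of -0.44 in MCAO. Their KChIP partners, calcium-binding subunits that raise Kv4 surface expression, did not all go the same way. Kcnip2 had 5027, 4671 and 3599, at 0.716-fold the control in MCAO (0.685 to 0.749). Kcnip3, also known as the transcriptional repressor DREAM, had 3113, 3465 and 3548, at 1.14-fold (1.08 to 1.2). Kcnip1 had 977, 902 and 785, and Kcnip4 had 1154, 1161 and 1094. Kcnip2 and Kcnip1 were thus lowest in MCAO, and Kcnip3 was lowest in the control.

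Silent modifiers are Kv subunits that form no channel alone and adjust Kv2 channels. Of 9 such members 8 passed the filter, and all 8 were below the control in MCAO, from -0.59 to -0.03, with a median of -0.30. In the contralateral library 6 of the 8 were below the control, with a median of -0.18. Kcnf1 had 4503, 3876 and 3749 normalised counts, and Kcnv1 had 2441, 1774 and 1918. Kcng1 was low in MCAO alone, with 324, 311 and 214. Kcng3, under the filter, had 2, 16 and 6 reads.

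**Figure D3:**
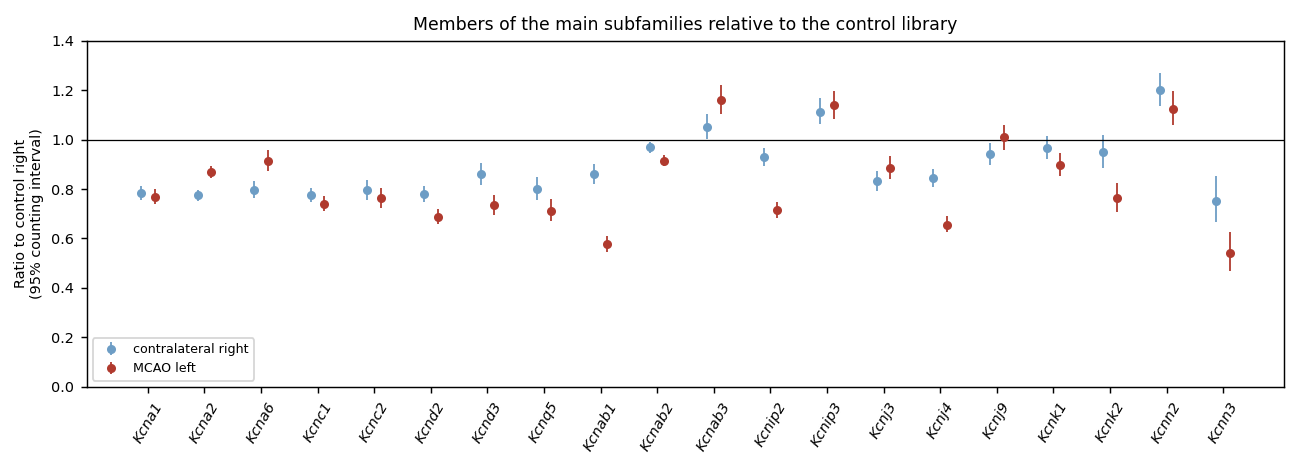
Ratio to the control library (y axis, linear) of 20 members from the main subfamilies in the contralateral library (blue) and in MCAO (red), with 95% counting intervals and a line at 1. Kcna1, Kcnc1 and Kcnc2 sit below 1 at nearly the same height in both libraries, whereas Kcnab1, Kcnip2, Kcnj4 and Kcnn3 are lower in MCAO, and Kcnab3, Kcnip3 and Kcnn2 lie above 1.

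KCNQ channels carry the M current, which restrains repetitive firing and is closed by muscarinic receptors. All 4 members were below the control in MCAO and in the contralateral library, with medians of -0.44 and -0.31. Kcnq3 had 306, 242 and 135, with MCAO at 0.442-fold of the control (0.354 to 0.549) and at 0.558-fold of the contralateral library (0.445 to 0.697). Kcnq3 was thus well below both right hemispheres in MCAO. Kcnq5 had 2550, 2044 and 1819, the contralateral value lying nearer to that of MCAO than to the control.

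The EAG, ERG and ELK family, which includes the ERG channels that repolarise the heart, had all 8 members below the control in both other libraries, with medians of -0.37 in MCAO and -0.36 in the contralateral library. Kcnh1 had 2902, 2168 and 2144 normalised counts and Kcnh3 had 4256, 3466 and 3554, so that both hemispheres of MCAO animals were alike. Kcnh4 had 272, 217 and 161 and was lowest in MCAO, at 0.592-fold the control (0.479 to 0.729). Kcnh6, an ERG gene, had 48.4, 35.5 and 21.2, from 50, 40 and 18 reads, at 0.437-fold (0.24 to 0.763). Its interval in MCAO against the contralateral library, 0.322 to 1.065, included 1. Kcnh7, another ERG gene, showed a different order, with 72.6, 36.4 and 62.3. It was lowest in the contralateral library, at 0.501-fold the control (0.334 to 0.742), and MCAO was 1.71-fold the contralateral value (1.12 to 2.64).

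Inward rectifiers pass potassium more easily into the cell than out. Of 11 members, 7 were below the control in MCAO and 4 above, with a median of -0.21. The genes Kcnj10 and Kcnj16, outside the rule, went the other way, with 39275, 47061 and 43737 normalised counts for Kcnj10 and 3577, 4321 and 4544 for Kcnj16. Among Kir2 genes, Kcnj4 had 4273, 3608 and 2805 and was 0.656-fold the control in MCAO (0.624 to 0.69). Kcnj2, a Kir2 gene of vessels and neurons, had 684, 735 and 709, and its interval in MCAO against the control, 0.929 to 1.16, included 1. Kcnj14 had 322, 384 and 374 and was lowest in the control, though its interval in MCAO against the control, 0.994 to 1.36, included 1.

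Kir3 (GIRK) subunits, opened by G proteins downstream of inhibitory receptors, ranged from no difference to clearly lower values in MCAO. Kcnj9 had 3339, 3141 and 3369 normalised counts, at 1.01-fold the control in MCAO (0.96 to 1.06). Kcnj3 had 3297, 2747 and 2916, Kcnj6 had 276, 210 and 200, and Kcnj5 had 126, 105 and 71.8. Kcnj5 was the lowest of the inward rectifiers relative to the control, at 0.57-fold (0.413 to 0.778).

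Kir6 subunits form ATP-sensitive channels with sulphonylurea receptors. Kcnj11, the pore gene of neurons and beta cells, had 1125, 1045 and 970 normalised counts, and its receptor gene Abcc8 had 780, 598 and 622. Kcnj8, the pore gene of pericytes and smooth muscle, had 61.0, 45.3 and 81.2 with MCAO at 1.79-fold of the contralateral library (1.23 to 2.63). Against the control it was 1.33-fold, and the interval of 0.931 to 1.9 included 1. Its receptor gene Abcc9 had 126, 79.8 and 138, the same order of libraries. The 9 mural markers, Abcc9 among them, summed to 4662, 3977 and 4757, but without Cspg4, also a gene of oligodendrocyte precursors, the other 8 summed to 4108, 3522 and 3481. Of the 9, 6 were below the control in MCAO, with a median of -0.08, and their part in the Kcnj8 values was not tested. Kcnj13, a gene of the choroid plexus, had 172, 146 and 115, lowest in MCAO. The 6 choroid plexus and ependyma markers summed to 14293, 18037 and 11097, also lowest in MCAO but highest in the contralateral library, and their part in the Kcnj13 values was not tested.

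K2P channels give background potassium conductance. Of the 10 past the filter, 9 were below the control in MCAO, with a median of -0.23, and Kcnk6 was above it. Kcnk6, encoding a potassium efflux channel known from macrophages, had 127, 111 and 215 normalised counts. MCAO stood at 1.7-fold of the control (1.35 to 2.14) and at 1.94-fold of the contralateral library (1.54 to 2.46), so MCAO lay above both right hemispheres. Kcnk13, the THIK channel gene of resting microglia, had 309, 260 and 304, and its MCAO to control interval of 0.83 to 1.16 included 1. Among the 13 microglia and macrophage markers, 10 were higher by 2-fold or more in MCAO against the control, whereas P2ry12 had 405, 382 and 418, and the part of these cells in the Kcnk6 and Kcnk13 values was not tested.

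K2P genes known from astrocytes were not higher in MCAO. Kcnk1 had 3177, 3068 and 2856 normalised counts, at 0.899-fold the control (0.853 to 0.948). Kcnk2, the mechanosensitive TREK gene, had 1565, 1486 and 1195, at 0.764-fold (0.705 to 0.826), and was close to the control in the contralateral library. Kcnk10 had 410, 337 and 306. Of the 10 astrocyte markers, 4 were below the control in MCAO and 6 above, with a median of 0.25. The glutamate transporter gene Slc1a3, at 51005, 47038 and 35442, was among those below, and Aqp4, at 8837, 8912 and 11018, among those above. The acid-sensitive TASK gene Kcnk9 had 88.1, 76.3 and 47.1, at 0.534-fold the control (0.358 to 0.782), while its relative Kcnk3 had 1105, 972 and 1041. Kcnk5, with the lowest mean of the members past the filter, had 24, 28 and 11 reads, and Kcnk7, just under it, had 26, 22 and 8.

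Calcium-activated channels held the member with the largest ratio in MCAO. Kcnn4 encodes the intermediate-conductance channel of red cells, lymphocytes, macrophages and activated microglia. It had 6.78, 3.55 and 63.5 normalised counts, from 7, 4 and 54 reads. MCAO stood at 9.37-fold of the control (4.25 to 24.4) and at 17.9-fold of the contralateral library (6.6 to 68). Kcnn4 passed the filter through its MCAO value alone, so its presence among the members called was bound to be as a higher gene. Of the 13 microglia and macrophage markers, 12 were highest in the same library, from P2ry12 at 1.03-fold of the control to Msr1 with 4.84, 5.32 and 519. Aif1 was highest in the contralateral library, with 79.4, 259 and 159, and the markers' part in the Kcnn4 value was not tested. As the only member higher by 2-fold in MCAO, its 1 listed RefSeq window is shown, at chr7:24370013-24370262 of GRCm38.p6 (plus strand), with its 6 CpGs in capitals. The window lies inside the gene's annotated span (24369826 to 24385212), so it precedes an internal start and not the outermost one.
Kcnn4: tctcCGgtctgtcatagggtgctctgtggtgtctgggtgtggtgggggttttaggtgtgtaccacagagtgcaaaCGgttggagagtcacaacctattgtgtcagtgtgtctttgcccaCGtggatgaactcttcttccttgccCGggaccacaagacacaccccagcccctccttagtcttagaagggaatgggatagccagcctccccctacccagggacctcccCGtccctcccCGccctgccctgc
As many CpGs or fewer were held by 26.2% of the windows of listed genes.

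The SK genes, small-conductance channels of the afterhyperpolarisation, did not follow Kcnn4. Kcnn3 had 573, 432 and 311 normalised counts with MCAO at 0.542-fold of the control (0.467 to 0.627) and at 0.719-fold of the contralateral library (0.616 to 0.837). Kcnn2 had 2147, 2582 and 2415, above the control in both libraries of MCAO animals, at 1.12-fold in MCAO (1.06 to 1.2). Kcnn1 had 653, 649 and 728, and its interval in MCAO against the control, 0.9985 to 1.246, included 1. Kcnn3 was thus lowest in MCAO, Kcnn2 lowest in the control and Kcnn1 highest in MCAO. The BK pore gene Kcnma1, opened by voltage and calcium together, had 1077, 927 and 872, at 0.809-fold (0.737 to 0.889). Its neuronal beta subunit gene Kcnmb4 had 1817, 1636 and 1729, and the interval of 0.888 to 1.02 included 1. Kcnmb2 had 76.5, 87.8 and 71.8, and the smooth muscle subunit gene Kcnmb1, under the filter, had 15, 12 and 5 reads. Kcnmb1 lies inside the span of Kcnip1 on chromosome 11, and without a known strand setting its reads may include some of Kcnip1.

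Sodium-activated channel genes were lower in both hemispheres of MCAO animals. Kcnt1 had 2109, 1753 and 1771 normalised counts, and Kcnt2 had 271, 217 and 166, at 0.612-fold the control in MCAO (0.496 to 0.751). Kcnt2 was lowest in MCAO, and Kcnt1 was alike in both.

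**Figure D4:**
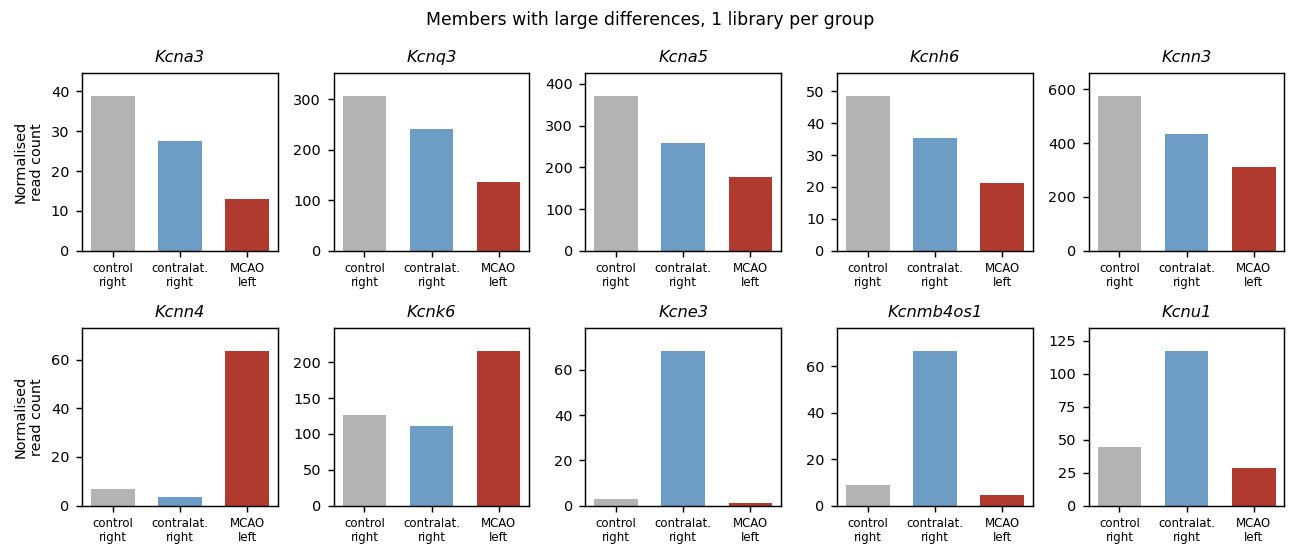
Normalised read counts (y axis, linear from 0, its own scale in each panel) in the control (grey), contralateral (blue) and MCAO (red) libraries for 10 members with large differences, with 1 library per bar. Kcna3, Kcnq3, Kcna5, Kcnh6 and Kcnn3 are lowest in MCAO, Kcnn4 and Kcnk6 are highest there, and Kcne3, Kcnmb4os1 and Kcnu1 are highest in the contralateral library.

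Set against the control, the contralateral library had 3 of 80 members higher by 2-fold or more, where 5.17% of all genes were, and 0 lower by as much, where 0.362% were. At 1.5-fold the same 3 were higher, against 8.43% of all genes, and Kcnb2 and Kcnh7 were lower, against 2.25%. The 3 higher members were Kcne3, Kcnmb4os1 and Kcnu1. Kcnu1, the sperm channel gene Slo3 (chromosome 8, 25848627 to 25937943), had 44.6, 117 and 28.2 normalised counts, the contralateral value being 2.63-fold that of the control (1.87 to 3.76). Kcne3, a small subunit that holds KCNQ1 channels open in epithelia, had 2.91, 68.3 and a listed minimum of 1, from 3, 77 and 0 reads. It was 23.5-fold the control (7.75 to 116) and, with 3 reads per library as the floor, at least 19.4-fold higher than in MCAO. Kcnmb4os1 had 8.72, 66.5 and 4.71, at 7.63-fold the control (3.81 to 17.3). It is a noncoding gene inside the span of Kcnmb4 on chromosome 10 (116418121 to 116421235), and since no strand setting was found in the sources used here, its reads cannot be told apart from those of Kcnmb4.

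All 11 male germ cell markers exceeded the control by 2-fold or more on the contralateral side, Odf1 and Pgk2 being listed at the minimum of 1 in the control and in MCAO, and their part in the values of Kcne3, Kcnmb4os1 and Kcnu1 was not tested. Kcne3 and Kcnmb4os1 passed the filter through the contralateral value alone. Among the 77 members with a control value of at least 20, 1 was 2-fold higher there, Kcnu1, against 1.67% of all such genes. The same 3 genes were the members at least 2-fold lower in MCAO than in the contralateral library, where 4.96% of all genes were, and Kcnn4 was the 1 higher member, where 3.18% were. That pair shares the contralateral library with the comparison just given, so this is no second observation. At 1.5-fold, 9 members were lower, against 7.71% of all genes, and 4 were higher, against 6.19%, namely Kcnh7, Kcnj8, Kcnk6 and Kcnn4.

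The remaining MinK-related genes and noncoding members differed little or had few reads. Kcne1l, on the X chromosome, had 869, 974 and 966 normalised counts, Kcne4 had 38.7, 38.2 and 43.5, and Kcne2 had 37.8, 41.7 and 24.7. Kcnmb4os2, whose span overlaps the edge of Kcnmb4, had 42.6, 60.3 and 70.6, at 1.66-fold the control in MCAO (1.1 to 2.5). It was 1 of the 3 members higher by 1.5-fold there, but its reads in the overlap cannot be told apart from those of Kcnmb4 either. Kcnq1ot1, the noncoding RNA of the imprinted Kcnq1 region, had 32.0, 20.4 and 30.6. Kcnrg, a regulator and no channel, had 8, 15 and 8 reads and was under the filter.

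Genes that work beside these channels were set next to them, in a list of 37 of which 34 passed the filter. They include the sodium pump, cation-chloride cotransporters, HCN channels and Kv partner proteins. In MCAO 22 of the 34 were below the control, against 50.3% of all genes, with a median of -0.07. In the contralateral library 23 were, against 50.6% of all genes, with a median of -0.13. None was 2-fold lower in either, where 1.25% (MCAO) and 0.362% (contralateral) of all genes were. Hcn2, a pacemaker channel gene, had 4954, 3793 and 3752 normalised counts, and Cntnap1, which organises the paranode, had 8915, 7502 and 6609. The pump regulator gene Fxyd1, with 1448, 2092 and 3029, was the 1 member of that list at least 2-fold higher in MCAO than in the control. Of all genes, 4.12% were.

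Neuron markers mostly moved in the same direction. Of the 13, 11 were below the control in MCAO, against 50.3% of all genes, with a median of -0.19. In the contralateral library 11 were, against 50.6% of all genes, with a median of -0.12. MCAO against the contralateral library gave 7 of 13 lower, against 50.3% of all genes, with a median of -0.08. Nefm, with 12491, 14806 and 15800 normalised counts, was lowest in the control. Syt1 had 34548, 26043 and 22789 normalised counts, Slc17a7 had 41540, 28415 and 33556, and Gad1 had 12304, 12193 and 12470. All 9 striatal markers were 1.5-fold or more below the control in MCAO (median -1.56), whereas in the contralateral library none was. Members lowest in MCAO, such as Kcnab1, Kcnip2, Kcnj4, Kcnh4 and Kcnq3, and those alike in both hemispheres of MCAO animals, such as Kcna1, Kcnc1 and Kcnh1, were not separated by cell type, and the part of striatal or other neurons in either was not tested.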

How the data were processed

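Ribosome-bound RNA was sequenced in 3 libraries, 1 per group. The authors deposited 1 table with a signal per gene symbol and library, which steps as counts of reads scaled by 1 factor per library. Tools listed in the submitters' processing notes, without roles, are HISAT2 2.0.11, CASAVA 1.8, DESeq2, R 3.3.1 and Partek 6.6, with the build mm10. Columns were matched by sample description, and 0 value columns were left unused.

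Values above 1 were whole multiples of 0.969 (control), 0.887 (contralateral) and 1.18 (MCAO), within 0.1 read for 99.9% of them, which gave 31833456, 33886604 and 25930258 reads. A value listed at 1 was taken as 0 reads, though 1 read would be listed alike in both right hemisphere libraries. Without replicate libraries no count test was possible. Differences of log2(value + 5) were computed where the mean reached 20, and called at 2-fold. Ratios are of deposited values, with 95% Clopper-Pearson counting intervals from the recovered reads. A floor of 3 reads was used against 0 reads.

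Members and lists were chosen with earlier results of these data known. Named genes were all members called, the 8 highest and 8 lowest in MCAO against control (5 and 5 in the other pairs), those with the most reads per subfamily, and those known from a cell type, with other members added after their values were seen. The procedure was tested on simulated data with Python 3.11.15 and scipy 1.17.1. Coordinates and upstream sequences are from RefSeq for GRCm38.p6, in which all 84 symbols were found. The endothelial, oligodendrocyte, oligodendrocyte precursor and thalamus marker lists had medians of 0.17, 0.35, 0.53 and -0.23 in MCAO against the control. Single values of some members and listed genes are not reported here; they remain in the counts and medians.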

Additional observations from a re-analysis of the deposited data

How the results depend on the processing

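No paired analysis was possible because each group had 1 library, and for the same reason no replicate could be left out. Scaling by column totals or to an equal median kept all 6 counts of members called 2-fold within 1.5 times, and the 3 medians stayed within 0.1 of -0.31, -0.08 and -0.23 under all alternatives run, 2 of which (a control value of at least 20, or 20 in the lower library of a pair) were added after seeing the data. Counts rested on few members. With 1.5-fold in place of 2-fold, the counts higher and lower went from 1 and 4 to 3 and 15 (MCAO against control), from 1 and 3 to 4 and 9 (MCAO against contralateral) and, for lower, from 0 to 2 (contralateral against control). A mean of at least 100 gave 0 and 2 (2.28% and 0.764% of all genes), then 0 and 0 (1.86% and 1.43%), then 0 higher (1.51%). Both added filters tested fewer members. They gave 0 higher in MCAO against the control (2.89% and 2.92% of all genes) and against the contralateral library (2.51% and 2.5%), 1 lower against the contralateral library (1.97% and 1.65%), and 1 higher in the contralateral library (1.67% and 1.68%), all near or below the shares of all genes. Lower in MCAO against the control, the added filters left 4 of 77 members (5.2%, against 1.21% of all genes) and 3 of 75 (4%, against 0.915%). A pseudocount of 20 gave 1 lower in MCAO against control (0.704% of all genes). Depth limits members such as Kcna3, Kcnh6, Kcnk5 and Kcnn4, which had 54 reads or fewer in every library.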
